A study of Homo sapiens with 6 samples.

Results

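The amino acid response and tRNA charging genes described here are 41 human genes, 24 of the response to amino acid shortage and stress and 17 that encode aminoacyl-tRNA synthetases of the cytosol. They are a list of genes given by name, and each takes the value of 1 probe set, the one with the highest mean over all arrays among the probe sets annotated to that gene only. A value was obtained for 38 of them, 23 of the response genes and 15 of the synthetases, among 19775 genes in all. GPT2 had no probe set listed under its symbol alone, and MARS1 and QARS1 had only probe sets that also carry the symbol of a microRNA gene (MIR6758 and MIR6890). The cells were of the established human line MOLM-14, an acute myeloid leukaemia with an MLL-AF9 rearrangement, and both groups came from this 1 line. The groups were cells kept for 24 h in 10 nM cortistatin A (CA), a steroidal alkaloid that blocks CDK8 and CDK19, which are kinases of the Mediator complex, and cells kept for 24 h in the vehicle DMSO. Each group had 3 wells, plated in triplicate and each hybridised to 1 Affymetrix U133 Plus 2.0 array. The comparison asks which transcripts differ when these kinases are inhibited.

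When amino acids run short, uncharged tRNA activates the kinase GCN2, which phosphorylates the initiation factor eIF2. Unfolded protein in the endoplasmic reticulum does the same through the kinase PERK. General translation falls while the mRNA of the transcription factor ATF4 is translated more, and ATF4, with C/EBP partners, binds composite C/EBP-ATF elements in genes for amino acid synthesis, amino acid import and tRNA charging. Asparagine, which ASNS makes, is the amino acid that asparaginase removes in the treatment of leukaemia.

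The core of the C/EBP-ATF element was searched as TGATGNAA on both strands of the RefSeq windows that run from 250 bases before to 50 bases after each annotated start (GRCh38.p14). Windows were matched by symbol for 32 of the 41 genes, 46 windows in all, and not for EIF4EBP1, PSPH, GPT2, PYCR1, SHMT2, ALDH1L2, LARS1, VARS1 and YARS1. The core was in 9 of these 46 windows (19.6%), each of a different gene, against 1270 of 35116 windows of all genes (3.62%). The list was made up of genes of the response that ATF4 directs, so these shares are no test of the motif. The 9 sites are shown because ATF4 is known to read this motif, and the mRNA of 8 of the 9 genes is described below. Each is given as 30 bases on the strand that carries the core, with the core in capitals.
CHAC1, chr15:40953251-40953280, minus strand: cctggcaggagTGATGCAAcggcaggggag
ASNS, chr7:97872458-97872487, minus strand: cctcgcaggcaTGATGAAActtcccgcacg
AARS1, chr16:70289675-70289704, plus strand: tctaacttggcTGATGCAActgcgagaaaa
CARS1, chr11:3057407-3057436, plus strand: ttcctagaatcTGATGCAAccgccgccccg
GARS1, chr7:30594834-30594863, minus strand: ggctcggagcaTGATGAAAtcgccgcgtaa
IARS1, chr9:92293692-92293721, plus strand: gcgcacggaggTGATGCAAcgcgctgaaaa
MARS1, chr12:57488053-57488082, minus strand: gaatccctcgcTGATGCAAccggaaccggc
NARS1, chr18:57621804-57621833, minus strand: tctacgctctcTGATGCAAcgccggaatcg
TARS1, chr5:33440956-33440985, minus strand: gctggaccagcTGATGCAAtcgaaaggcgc

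The letters of the core were the same, TGATGCAA, in 7 of the 9 genes, and TGATGAAA in ASNS and GARS1. In CARS1, IARS1, MARS1, NARS1 and TARS1 the core lay within 21 bases of the annotated start, and in CHAC1 and AARS1 it lay farthest upstream. A match describes letters and does not show that a factor binds. An E-box, CACGTG, was in 4 of the 46 windows (8.70%), those of ATF4, ALDH18A1 and IARS1, against 7.26% of all windows. The interferon response core GAAANNGAA was in 4 windows (8.70%), of ATF5, GARS1, IARS1 and WARS1, against 8.11% of all windows. The ATF5 window holds overlapping matches of this last motif, and no E-box or interferon match overlapped a C/EBP-ATF core.

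The arrays were alike in distribution, with medians of 5.59 to 5.62 on the log2 scale, and correlated across probe sets at r = 0.998 within a group and 0.996 to 0.997 between groups. Probe sets are not independent replicates. The 10 measured myeloid markers ranged in mean log2 intensity over 4.71 to 13.33 in CA and 4.36 to 13.38 in DMSO, with LYZ and FLT3 the highest and CD14 the lowest, while the lower quartile of the arrays was 4.11 to 4.14. The 6 T and NK cell markers ranged over 3.98 to 6.73 in CA and 4.08 to 7.26 in DMSO, and of these GNLY rose by 0.77 and NKG7 fell by 0.52. Of 5 B cell markers, over 4.22 to 10.10 in CA and 4.14 to 9.68 in DMSO, PAX5 rose by 0.42 and BLNK by 0.85. None of the 6 epithelial and stromal markers was called in limma (1 at an unadjusted p under 0.05). Of the 10 measured myeloid markers, 1 rose and 4 fell, and the mean of the 10 on the linear scale was 1601 to 1664 on the CA arrays and 1657 to 1787 on the DMSO arrays. The part of these markers in the results below was not tested. The labels name a pair of RNA isolation methods without assigning them to samples, so an effect of the method was not tested. The GAPDH control probe sets, read at the 3' end minus the 5' end as a check on degraded RNA, gave 0.48 ± 0.05 in CA and 0.38 ± 0.02 in DMSO (log2, SD, n = 3 each, exact permutation p = 0.1, the smallest that 3 against 3 arrays allow). Those of ACTB gave larger values, 2.38 ± 0.07 in CA and 2.27 ± 0.13 in DMSO (exact permutation p = 0.3). The part of RNA quality in the results was not tested either.

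In the default limma fit few of these genes were called, and not in 1 direction. CTH, VLDLR, WARS1 and PYCR1 rose, while ASNS, TRIB3 and ATF4 fell. The largest change was the 1.80-fold rise of CTH, and the other 6 were between 1.14-fold and 1.41-fold. The threshold for a call was an adjusted p of 0.05 in limma fitted across all 19775 genes. By that rule 7 of the 38 genes were called (18.4%), against 11.1% of all genes (6.64% higher, 4.49% lower). All 38 had a mean log2 of at least 6, and 18.2% of the 10997 genes above that floor were called, a share close to that of the 38 in this fit. Other fits set the shares further apart. In a fit on those 10997 genes only, 47.4% of the 38 were called, against 31.4%. With an intensity trend and robust moderation, 57.9% of the 38 were called, against 32.5% of the genes above that floor. The median log2 change of the 38 genes was 0.02, against -0.00 over all genes. CA and DMSO arrays did not overlap in 25 of the 38 genes (65.8%), against 31.8% of all genes and 47.8% of genes whose mean log2 reached 6. In RNA from whole wells, fewer cells that express a gene and less RNA of it per cell cannot be told apart.

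**Figure D1:**
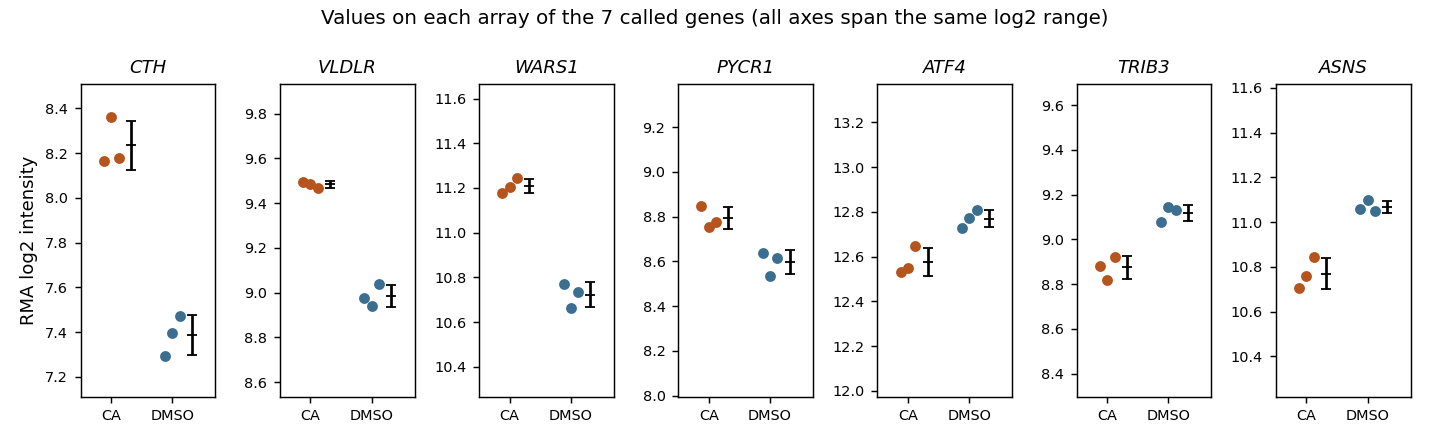
RMA log2 intensity (vertical axes, all spanning the same range) of the 7 called genes on each of 3 CA arrays (left, orange) and 3 DMSO arrays (right, blue), with the mean and SD beside the points. The CA points lie above all DMSO points for CTH, VLDLR, WARS1 and PYCR1, and below them for ATF4, TRIB3 and ASNS.

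Among the regulators, the sensing kinases gave no call in the default limma fit. EIF2AK4, which encodes GCN2, averaged 8.89 ± 0.03 in CA and 8.73 ± 0.10 in DMSO, a log2 difference of 0.16 with a 95% confidence interval of 0.02 to 0.29 (adjusted p = 0.136). In limma with an intensity trend and robust moderation, EIF2AK4 was called higher (adjusted p = 0.0332). EIF2AK3, which encodes PERK, differed by 0.07 (-0.03 to 0.18). PPP1R15A encodes GADD34, the subunit that directs a phosphatase to eIF2 and so ends the response, and its difference was 0.01 (-0.08 to 0.09).

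ATF4 mRNA, which encodes the transcription factor at the centre of the response, had log2 intensities of 12.53, 12.55 and 12.65 on the CA arrays, against 12.73, 12.77 and 12.81 on the DMSO arrays. Every CA value lay below every DMSO value. The log2 change was -0.19 (SE 0.05, adjusted p = 0.0480), a 1.14-fold fall. This call lies at the threshold. It was lost when any 1 array other than CA replicate 3 was left out (adjusted p 0.0815 to 0.146), when arrays were centred on their medians (adjusted p = 0.0603), and with the probe set of largest variance for each gene (adjusted p = 0.114), without probe sets ending in _x_at, _s_at or _a_at (adjusted p = 0.0691) or in a test per probe set (adjusted p = 0.103). It was lost as well in a fit with a block for the replicate number. It was kept with the mean of all probe sets of each gene (adjusted p = 0.0480). ATF4 has 1 probe set, so its own values were the same in all settings that only choose or drop probe sets. Array intensity reports the mRNA, and ATF4 is known to be controlled mainly in its translation, which was not measured.

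TRIB3 encodes a pseudokinase that ATF4 induces and that in turn restrains ATF4. Its log2 intensities were 8.88, 8.82 and 8.92 in CA, against 9.08, 9.14 and 9.13 in DMSO. The groups did not overlap, and the log2 change was -0.24 (SE 0.04, adjusted p = 0.0167), a 1.18-fold fall. The call was lost without CA replicate 1 or 2 or DMSO replicate 2 or 3 (adjusted p 0.0543 to 0.0671), and in a fit with a block for the replicate number. Its second probe set gave -0.14 and was not called, nor was the mean of both (-0.19, adjusted p = 0.131).

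DDIT3, which encodes the stress transcription factor CHOP, was near these in size but not called. It had 8.66, 8.66 and 8.78 in CA, against 8.88, 8.88 and 8.79 in DMSO. The third CA value lay just under the lowest DMSO value, and the difference was -0.15 (-0.27 to -0.03, adjusted p = 0.128). ATF5, a factor related to ATF4, differed by -0.06 (-0.16 to 0.04). CHAC1, which degrades glutathione, varied most between wells, with 6.43, 6.15 and 6.60 in CA and 6.37, 6.51 and 6.48 in DMSO. Its CA values lay on both sides of the DMSO values, and the interval of its difference, -0.33 to 0.21, was the widest among the regulators. SESN2, a leucine sensor that restrains mTORC1, differed by 0.00 (-0.09 to 0.09), and EIF4EBP1, which encodes the translation repressor 4E-BP1, by 0.01 (-0.10 to 0.12). Among the 10 regulators, 2 fell and 0 rose in limma (3 and 1 at an unadjusted p under 0.05), and the median change was -0.03. That is 20% called, against 11.1% of all genes and 18.2% of genes whose mean log2 reached 6.

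**Figure D2:**
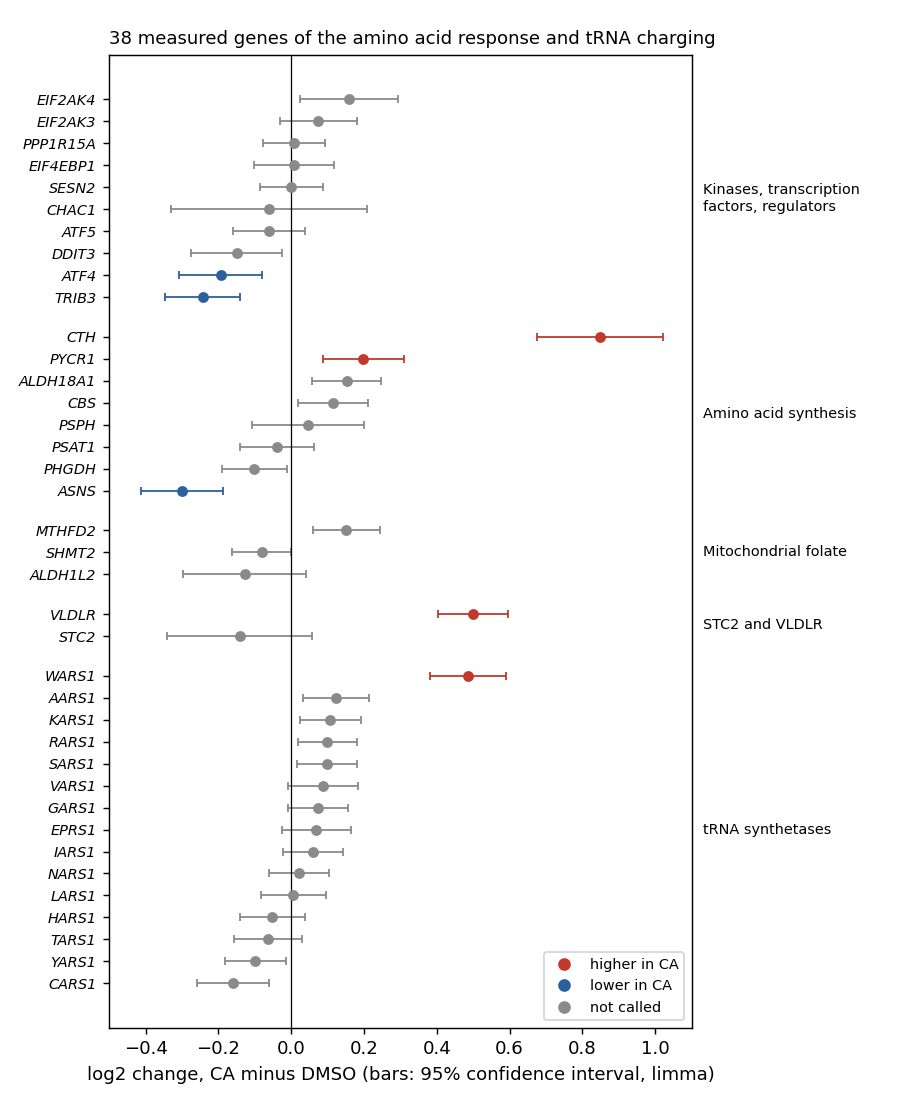
Log2 change, CA minus DMSO (horizontal axis), of the 38 measured genes by role, with 95% confidence intervals from limma across all genes, 3 arrays a group. Red marks the 4 genes called higher in CA, blue the 3 called lower and grey the 31 not called, whose intervals all lie between -0.34 and 0.29.

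The enzymes of amino acid synthesis included both the strongest rise and the strongest fall. CTH encodes cystathionine gamma-lyase, which makes cysteine from cystathionine in the last step of transsulfuration. Its log2 intensities were 8.16, 8.36 and 8.18 in CA, against 7.29, 7.39 and 7.47 in DMSO. The groups lay far apart relative to their spread. The log2 change was 0.85 (SE 0.07, adjusted p = 9.54e-04), a 1.80-fold rise that ranked 92 in size among the 1314 genes called higher. Its second probe set rose too, by 0.72. CBS, the enzyme of the step before, had 7.93, 7.97 and 7.96 in CA, against 7.85, 7.79 and 7.88 in DMSO. The values did not overlap, but the difference of 0.11 (0.02 to 0.21) was not called (adjusted p = 0.135).

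ASNS, asparagine synthetase, is among the best studied targets of ATF4. Its log2 intensities were 10.70, 10.76 and 10.84 in CA, against 11.06, 11.10 and 11.05 in DMSO. All CA values were the lower ones, and the log2 change was -0.30 (SE 0.05, adjusted p = 0.0106), a 1.23-fold fall. The call held with each array left out in turn (adjusted p below 0.05 in 6 of 6). It rests on 1 probe set, since the other, at 3.57 in CA and 3.66 in DMSO and so below the arrays' lower quartile, gave -0.09, and their mean was not called (-0.19, adjusted p = 0.0904). The probe set called is of the _s_at kind, which can match several transcripts. The 250 bases before the annotated start whose window holds the core shown above are printed with that core in capitals (chr7:97872409-97872658, minus strand).
ASNS: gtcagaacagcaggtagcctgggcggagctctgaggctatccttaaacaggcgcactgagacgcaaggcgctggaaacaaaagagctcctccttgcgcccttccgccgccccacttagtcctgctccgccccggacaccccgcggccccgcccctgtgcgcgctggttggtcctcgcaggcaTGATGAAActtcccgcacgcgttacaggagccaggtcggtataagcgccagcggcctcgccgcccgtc

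For proline synthesis, PYCR1 encodes the reductase of the last step, and its log2 intensities were 8.85, 8.75 and 8.78 in CA, against 8.64, 8.53 and 8.62 in DMSO. The groups did not overlap, and the log2 change was 0.20 (SE 0.05, adjusted p = 0.0432), a 1.15-fold rise. The call was lost with any 1 of the 6 arrays left out (adjusted p 0.0755 to 0.119) and in a fit with a block for the replicate number. It was also lost with the probe set of largest variance for each gene or a test per probe set (adjusted p = 0.106 and 0.0947). PYCR1 has 1 probe set, so its own values were the same in these last 2 settings. That probe set is of the _s_at kind, which can match several transcripts. ALDH18A1, the enzyme of the first steps of the same route, averaged 10.84 ± 0.02 in CA and 10.68 ± 0.04 in DMSO, a difference of 0.15 (0.06 to 0.25) that just missed the threshold (adjusted p = 0.0583).

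In the serine route none of 3 genes was called in limma (1 at an unadjusted p under 0.05, PHGDH). PHGDH, the entry enzyme from glycolysis, had 9.57, 9.53 and 9.60 in CA, against 9.67, 9.66 and 9.68 in DMSO. The CA values were all lower, by 0.10 on average (-0.19 to -0.01, adjusted p = 0.147). PSAT1, the aminotransferase that follows, differed by -0.04 (-0.14 to 0.06), and PSPH, the phosphatase that ends the route, by 0.05 (-0.11 to 0.20). Of the 8 measured genes of amino acid synthesis, 2 rose and 1 fell, with a median change of 0.08. That is 37.5% called, against 11.1% of all genes and 18.2% of genes whose mean log2 reached 6.

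In the mitochondrial folate pathway, which takes 1-carbon units from serine, none of the 3 genes was called in limma (1 at an unadjusted p under 0.05, MTHFD2). MTHFD2, the dehydrogenase and cyclohydrolase, had 13.01, 13.00 and 12.94 in CA, against 12.80, 12.85 and 12.84 in DMSO. The values did not overlap, and the difference was 0.15 (0.06 to 0.24, adjusted p = 0.0546). SHMT2, which splits serine to glycine, averaged 12.24 ± 0.01 in CA and 12.32 ± 0.01 in DMSO, a difference of -0.08 (adjusted p = 0.198). ALDH1L2, which oxidises formyl-folate to carbon dioxide, differed by -0.13 (-0.30 to 0.04).

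VLDLR encodes the very low density lipoprotein receptor, which takes up lipoproteins and is known to be induced by ATF4 under endoplasmic reticulum stress. It had 9.49, 9.49 and 9.47 in CA, against 8.97, 8.94 and 9.04 in DMSO. These values were tight in both groups and far apart, with a log2 change of 0.50 (SE 0.04, adjusted p = 7.76e-04), a 1.41-fold rise. VLDLR has 1 probe set, of the _s_at kind, which can match several transcripts. STC2, a secreted glycoprotein of the stress response, had 6.71, 6.95 and 6.70 in CA and 7.04, 6.88 and 6.88 in DMSO. The groups overlapped, and the difference was -0.14 (-0.34 to 0.06).

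Of the 15 measured synthetases, 1 rose. It was WARS1, which charges tRNA with tryptophan and is also known as an interferon-inducible gene. Its log2 intensities were 11.18, 11.20 and 11.24 in CA, against 10.77, 10.67 and 10.73 in DMSO. The groups were separate by far more than their spread, with a log2 change of 0.49 (SE 0.04, adjusted p = 0.00120), a 1.40-fold rise. Its second probe set rose by 0.45. The interval of the WARS1 change, 0.38 to 0.59, lay above those of the 14 other synthetases, which reached 0.21 at most, and this difference between genes was not itself tested. Of its 2 windows, 1 held the interferon response core. The 250 bases before that start are shown with the match in capitals (chr14:100375348-100375597, minus strand).
WARS1: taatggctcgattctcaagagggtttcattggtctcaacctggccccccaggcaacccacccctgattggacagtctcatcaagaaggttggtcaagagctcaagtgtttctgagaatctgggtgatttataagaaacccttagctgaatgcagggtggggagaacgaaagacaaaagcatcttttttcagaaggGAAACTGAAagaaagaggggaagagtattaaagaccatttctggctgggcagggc

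The 14 other synthetases had log2 differences of -0.16 to 0.12, and none was called in the default limma fit. With WARS1, 5 of the 15 were higher and 2 lower at an unadjusted p under 0.05. Their 95% confidence intervals lay within -0.26 to 0.21. AARS1 (alanine) had 10.75, 10.80 and 10.79 in CA, against 10.70, 10.64 and 10.64 in DMSO, a difference of 0.12 (adjusted p = 0.0962). KARS1 (lysine) differed by 0.11, RARS1 (arginine) by 0.10, SARS1 (serine) by 0.10 and VARS1 (valine) by 0.09. GARS1 (glycine), EPRS1 (glutamate and proline) and IARS1 (isoleucine) differed by 0.07, 0.07 and 0.06. NARS1 (asparagine) and LARS1 (leucine) were closest to no difference, with 0.02 and 0.01.

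Those with a negative difference were CARS1, YARS1, TARS1 and HARS1. CARS1 (cysteine) had 11.22, 11.20 and 11.30 in CA, against 11.41, 11.40 and 11.40 in DMSO. All its CA values were below those of DMSO, and the difference was -0.16 (-0.26 to -0.06, adjusted p = 0.0572). Its other 3 probe sets differed by -0.17, -0.32 and -0.08. YARS1 (tyrosine) differed by -0.10, TARS1 (threonine) by -0.06 and HARS1 (histidine) by -0.05. Over the 15 synthetases, 11 differences were positive, the median was 0.07, and CA and DMSO arrays did not overlap for 12, against 31.8% of all genes and 47.8% of genes whose mean log2 reached 6. The 1 gene called higher in the default fit is 6.67% of the 15, against 6.64% of all genes. All 15 had a mean log2 of at least 6, and 18.2% of all genes at such levels were called in either direction. Fits described below called more of the synthetases.

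**Figure D3:**
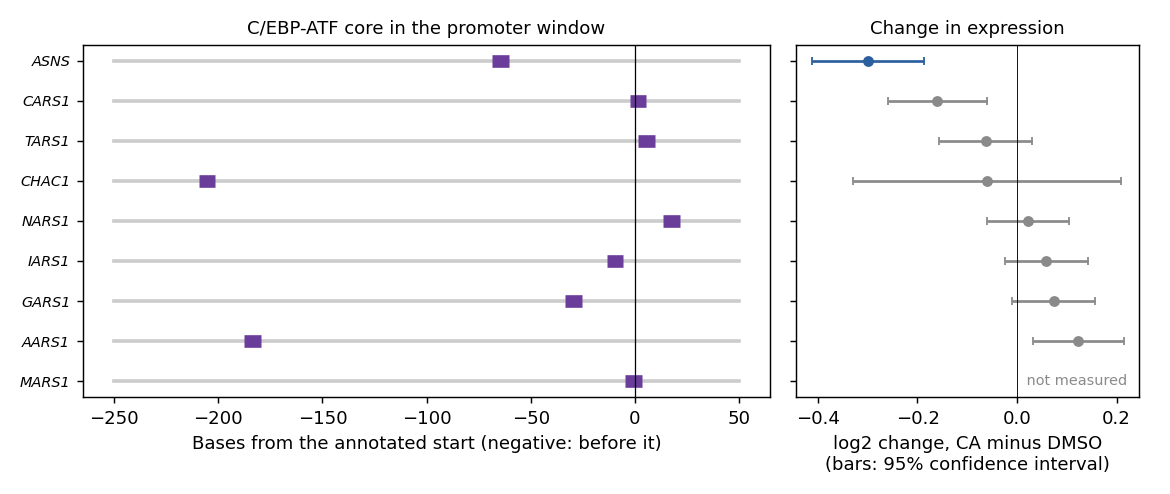
Left, position of the C/EBP-ATF core in the promoter window of the 9 genes that hold it (bases from the annotated start, 0 being the first transcribed base); right, log2 change, CA minus DMSO, with 95% confidence intervals. The differences lie on both sides of 0, 4 positive and 4 negative, ASNS (blue) is the 1 called gene, and MARS1 was not measured.

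The 8 measured genes with a C/EBP-ATF core in a window were split in direction. The differences were positive in AARS1, GARS1, IARS1 and NARS1 and negative in ASNS, CARS1, TARS1 and CHAC1. ASNS was the 1 that was called. The windows of CTH, VLDLR, WARS1, TRIB3 and ATF4 did not hold the core, which says only that these letters are not there.

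How many of these genes were called differed between fits. Fitted only on genes whose mean log2 reached 6, limma called 18 of the 38 (47.4%), 11 higher and 7 lower, where it called 31.4% of those 10997 genes. That fit changes both the estimate of the spread and the number of tests adjusted over. The 11 genes that joined the 7 were AARS1, ALDH18A1, CBS, KARS1, MTHFD2, RARS1 and SARS1 (higher) and CARS1, DDIT3, PHGDH and YARS1 (lower). With an intensity trend and robust moderation, 22 of the 38 were called (57.9%), 14 higher and 8 lower, against 19.3% of all genes and 32.5% of genes whose mean log2 reached 6. Those that joined the 7 as higher were AARS1, ALDH18A1, EIF2AK4, EPRS1, GARS1, IARS1, KARS1, MTHFD2, RARS1 and SARS1. Those that joined as lower were CARS1, DDIT3, PHGDH, SHMT2 and YARS1. The 7 genes called in the fit across all genes were called in both of these fits, and the sizes of the changes were the same in all 3.

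**Figure D4:**
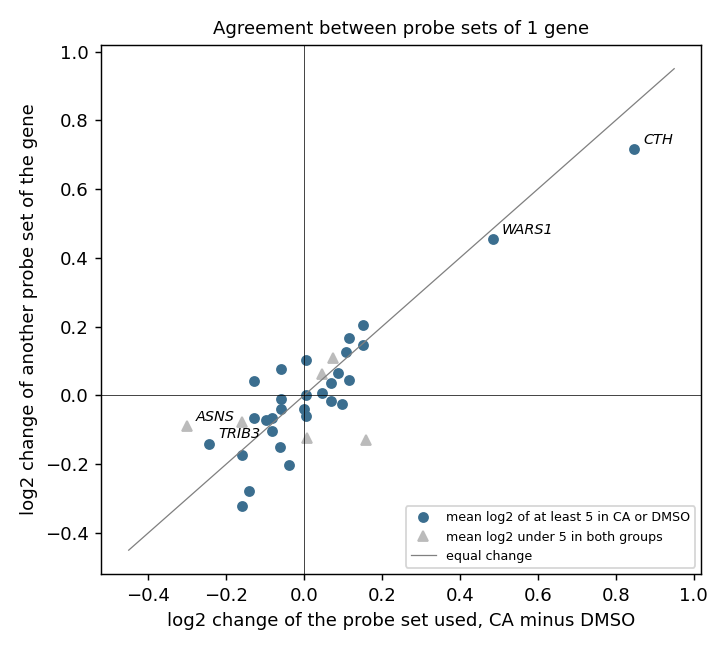
Log2 change, CA minus DMSO, of each further probe set of a gene (vertical axis) against that of the probe set used (horizontal axis), for the 25 genes with more than 1. CTH and WARS1 lie near the line of equal change, and 28 of the 36 further probe sets share the sign of the probe set used.

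A second reading of most genes came from other probe sets. Of the 38 genes, 25 had more than 1 probe set, and 28 of the 36 others had the same sign as the one used. For the called genes CTH, WARS1, TRIB3 and ASNS this held for 4 of 4, and VLDLR, PYCR1 and ATF4 had no other. Probe sets of 1 gene share the RNA sample, so they are not replicates.

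Genes that work beside these changed in both directions. Over 8 lists of related genes, 96 of 106 were measured, of which 16 rose and 9 fell, with a median change of 0.00. These 25 are 26.0% of the 96, against 11.1% of all genes (6.64% higher, 4.49% lower) and 18.2% of genes whose mean log2 reached 6. Mitochondrial synthetases gave 4 rises and 0 falls among 15 in limma (7 and 0 at an unadjusted p under 0.05), 26.7% called, against 11.1% of all genes and 6.64% called higher. All 15 had a mean log2 of at least 6, and 18.2% of all genes at such levels were called. NARS2 rose by 0.24 (adjusted p = 0.0271), HARS2 by 0.23 (adjusted p = 0.0107), RARS2 by 0.16 (adjusted p = 0.0384) and CARS2 by 0.15 (adjusted p = 0.0495). All but HARS2 lost the call with any 1 array left out, with adjusted p of 0.0579 to 0.0870 for NARS2, 0.0821 to 0.123 for RARS2 and 0.0746 to 0.147 for CARS2. With the mean of all probe sets, RARS2 was at 0.03 (adjusted p = 0.759) and CARS2 at 0.05 (adjusted p = 0.487), and with the probe set of largest variance RARS2 was at 0.07 (adjusted p = 0.802), CARS2 at 0.19 (adjusted p = 0.259) and NARS2 at 0.24 (adjusted p = 0.0645). FARSA, the alpha subunit of the cytosolic phenylalanine synthetase, rose by 0.27 (adjusted p = 0.00699). It was the 1 call among 3 measured genes of other cytosolic synthetases and their scaffold (33.3%, against 11.1% of all genes). Among 12 genes of eIF2, its exchange factor and its other kinases, EIF2B3 rose by 0.20 and EIF2AK2, which encodes the interferon-inducible kinase PKR, fell by 0.27 (adjusted p = 0.0102). Of the 12, 16.7% were called, against 11.1% of all genes. The EIF2B3 call (adjusted p = 0.0235) was lost with any 1 array left out (adjusted p 0.0526 to 0.0884), and that of EIF2AK2 with the mean of all its probe sets (-0.16, adjusted p = 0.0820).

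Other genes linked to ATF4 gave 4 rises and 3 falls among 15. The share called was 46.7%, against 11.1% of all genes and 18.2% of genes whose mean log2 reached 6. GDF15, a stress cytokine, had 7.40, 7.16 and 7.12 in CA, against 6.04, 6.26 and 6.03 in DMSO, a log2 change of 1.12 (adjusted p = 9.70e-04). JDP2, a repressor of the AP-1 family, fell by 0.43 (adjusted p = 0.00681), CDKN1A, which encodes the cell cycle inhibitor p21, fell by 0.45 (adjusted p = 0.00269), and ATF3, a stress transcription factor, rose by 0.27 (adjusted p = 0.0141). GDF15 and ATF3 rest on probe sets of kinds that can match several transcripts, and with these kinds left out their changes were -0.02 (adjusted p = 0.954) and -0.06 (adjusted p = 0.586). With the mean of all probe sets GDF15 was at 0.33 (adjusted p = 0.0231) and ATF3 at 0.11 (adjusted p = 0.256). The ATF3 call was also lost without CA replicate 1 or 3 or DMSO replicate 2 or 3 (adjusted p 0.0504 to 0.0608).

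Amino acid transporters gave 2 falls and 0 rises among 11 in limma, also at an unadjusted p under 0.05. The share called was 18.2%, against 11.1% of all genes and 18.2% of genes whose mean log2 reached 6. SLC7A11, the cystine importer, had 7.95, 8.03 and 8.06 in CA, against 8.72, 8.78 and 8.74 in DMSO, a log2 change of -0.73 (adjusted p = 2.47e-04). So CTH, whose enzyme makes cysteine, was higher in CA, and the cystine importer was lower. SLC38A2, a carrier of neutral amino acids, fell by 0.15 (adjusted p = 0.0482), a call lost with any 1 array left out (adjusted p 0.0831 to 0.149) and, averaged over its probe sets, not made (adjusted p = 0.0868). Among 13 other amino acid enzymes, GLUL, glutamine synthetase, rose by 0.41 (adjusted p = 0.00294), and AHCY and ASS1, of the methionine cycle and of arginine synthesis, each fell by 0.31. Of the 13, 23.1% were called, against the same 11.1% and 18.2%. The probe set used for GLUL can match several transcripts, and without such probe sets the GLUL change was 0.03 (adjusted p = 0.783). Of the 4 probe sets of GLUL, however, 3 were called higher when each was tested by itself. Averaged over its probe sets GLUL rose by 0.32 (adjusted p = 0.00420), and by 0.45 when its most variable probe set was taken (adjusted p = 0.0227).

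Other serine and folate genes gave 1 fall among 11 (9.09%, against 11.1% of all genes), of MTHFD2L, by 0.20 (adjusted p = 0.0398). That call was lost with any 1 array left out (adjusted p 0.0575 to 0.121). With the mean of all probe sets MTHFD2L was at -0.12 (adjusted p = 0.186) and with that of largest variance at -0.37 (adjusted p = 0.0646). Genes of endoplasmic reticulum folding and of the XBP1 and ATF6 arms, which run beside PERK, gave 5 rises and 0 falls among 16 in limma (6 and 2 at an unadjusted p under 0.05), 31.2% called, against 11.1% of all genes and 6.64% called higher. All 16 had a mean log2 of at least 6, and 18.2% of all genes at such levels were called. EDEM1, which hands misfolded proteins to degradation, rose by 0.56 (adjusted p = 4.23e-04), and HERPUD1, of the same disposal route, by 0.48 (adjusted p = 4.52e-04), or by 0.27 with the mean of its 2 probe sets, of which 1 was called. XBP1, the transcription factor of the IRE1 arm, rose by 0.43 (adjusted p = 0.00536, or 0.0654 with the probe set of largest variance), and DNAJB9, a chaperone partner, by 0.30 (adjusted p = 0.0119). Over the 16 the median change was 0.02.

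**Figure D5:**
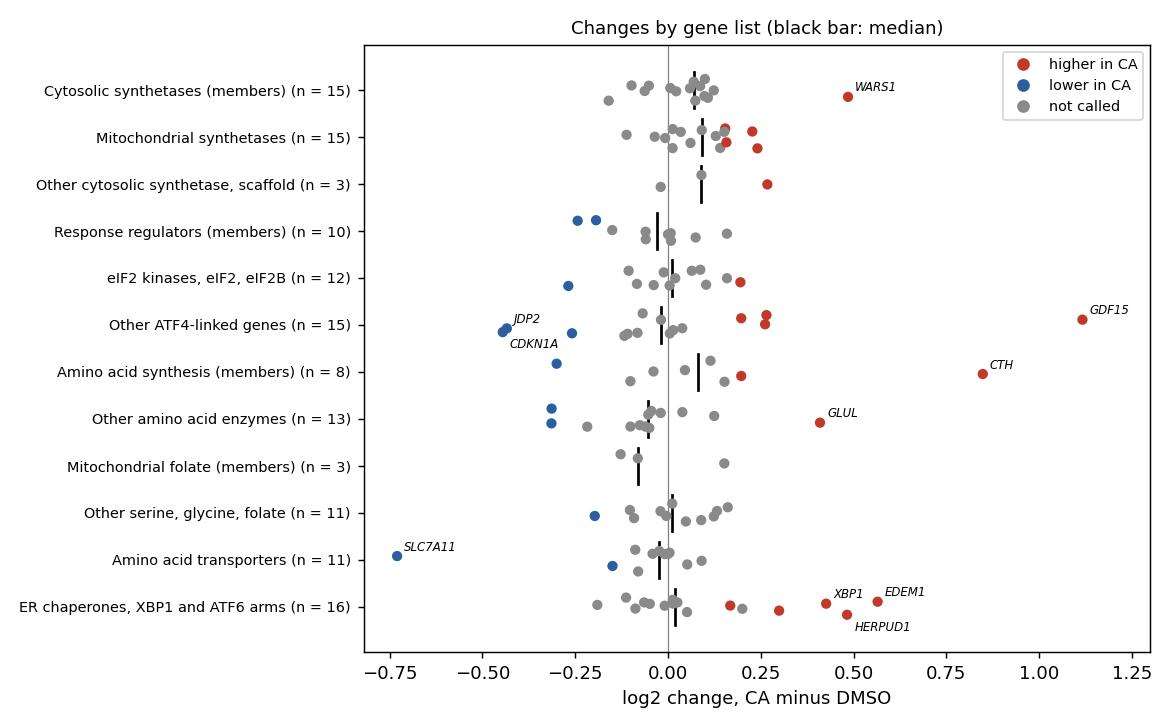
Log2 change, CA minus DMSO (horizontal axis), of the measured genes by list, with n measured beside the name and the list's median as a black bar. STC2 and VLDLR are not drawn. Red and blue points are genes called higher and lower in CA, and the medians of the lists drawn lie between -0.08 and 0.09.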

How the data were processed

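Expression was measured in 3 CA and 3 DMSO samples. The deposited table holds log2 intensities of probe sets. The submitters' processing notes name RMA and affy, so the authors corrected background, quantile-normalized and summarised probes, steps known to compress large fold changes. Neither the versions nor the set of arrays normalized together is given in the sources used here. Arrays have no sequencing depth, and their number limits the precision.

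Of 54675 probe sets, 62 were controls, 41091 had 1 symbol (41037 matched to GRCh38.p14 by Entrez number, which updated symbols), 1801 had several and 11721 were unnamed. Those with several symbols were left out, 5 of them on genes described here. The probe set with the highest mean stood for each gene, and no level filter was applied.

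The CA and DMSO arrays were set against each other in limma 3.58.1 under R 4.3.3 (lmFit, eBayes, default settings, 2-sided), with Benjamini-Hochberg adjustment over 19775 genes. All adjusted p-values and 95% confidence intervals come from this fit unless another is named. Differences and changes are log2, CA minus DMSO. The labels give wells plated in triplicate and no separate cultures, so p-values reflect the spread among 6 wells, which may be technical.

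Named were every measured gene of the 41, and up to 4 called genes with the largest change in each related list. The genes, lists and motifs were chosen with earlier results of these data known. There were 21 alternatives, covering the choice of probe set, level filters, scaling, moderation, array weights, a replicate block, each array left out and thresholds.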

Additional observations from a re-analysis of the deposited data

How the results depend on the processing

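Over the alternatives, 35 of the 145 values of the 7 called genes were no longer past the threshold and 0 had the opposite sign, but many of these values reuse the same estimate and could not turn. The counts were less stable. For the 41 genes, 4 were called higher and 3 lower. With only genes of mean log2 of at least 5 these became 8 higher, of at least 6, 11 higher and 7 lower, and with an intensity trend 14 and 8. At adjusted p under 0.1 there were 7 higher, and at 0.01, 0 lower (7 at an unadjusted p under 0.05 by limma). The mean of all probe sets, the probe set of largest variance and a 1.2-fold minimum each left 1 lower, while dropping _x, _s and _a probe sets, kinds that can match several transcripts, left 2 higher and 1 lower. Leaving out 1 array left 3 higher and 1 to 3 lower.

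Over all genes, 1314 were called higher and 888 lower. The counts were 841 and 570 with the probe set of largest variance, 773 and 566 without _x, _s and _a probe sets, 2119 and 1695 with a trend, 573 and 312 at 0.01, and 795 and 454 with a 1.2-fold minimum. There were 1539 lower with a mean log2 of at least 6 and 1432 lower at 0.1. With 1 array left out they ranged over 721 to 848 higher and 435 to 495 lower. Of the related lists, 16 were called higher and 9 lower. These became 10 higher with largest variance, 8 and 4 without those probe sets, 14 lower at mean log2 of at least 6, 17 lower with a trend, 6 and 5 at 0.01, 8 higher with 1.2-fold, 10 higher per probe set, and 8 to 10 higher with 1 array left out.

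Whether the replicate numbers pair the samples cannot be settled from 3 arrays a group. Correlations of same-numbered deviations were small (0.0225, 0.0299 and 0.0245), and those of unlike numbers ran from -0.0815 to 0.0603. CA replicate 2 correlated better with DMSO replicate 1 (0.0448) than with its own number. With the replicate block, 716 genes were called higher and 402 lower, 1 of the 41 genes was lower and 7 of the related lists were higher.

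Signs turned only for genes not called in that setting, and 25 of these 27 values were of 8 genes described here. EIF2AK4 was at -0.13 with the probe set of largest variance and without _x, _s and _a probe sets. ATF5 was at 0.077 and EPRS1 at -0.018 with largest variance. PPP1R15A was at -0.058 with the mean of probe sets, -0.12 with largest variance, -0.0061 with arrays centred on reference genes, and -0.0035 to 0.016 with 1 array left out. SESN2 was at -0.019 and -0.039 with the mean and largest variance, -0.014 centred on reference genes, -0.0067 after a second quantile normalization, -0.0025 with array weights, and -0.013 to 0.012 with 1 array left out. EIF4EBP1 was at -0.0068 and -0.0074 under those scalings and -0.016 to 0.048 with 1 array left out. LARS1 was at -0.0080 centred on reference genes and -0.0061 to 0.021 with 1 array left out, and CHAC1 at -0.16 to 0.061. GDF15 turned to -0.019 and ATF3 to -0.064 without _x, _s and _a probe sets. The cause of these shifts was not tested. For the counts above, a stricter threshold cannot add calls, by construction.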

Other observations

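HARS1 and HARS2 are neighbours on chromosome 5 that run away from each other in GRCh38.p14, and encode the histidine synthetases of the cytosol and, for HARS2, the mitochondria. HARS1 averaged 10.12 ± 0.03 in CA and 10.18 ± 0.03 in DMSO, a difference of -0.05 (95% confidence interval -0.14 to 0.04). HARS2 averaged 10.12 ± 0.03 in CA and 9.89 ± 0.01 in DMSO (SD, n = 3 arrays each), a rise of 0.23 (0.14 to 0.31, adjusted p = 0.0107 in limma). The difference between the pair was not tested, and the genes are close in sequence, so a probe could read both.

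Outside the naming rule, and chosen after their values were seen, were DDIT4, CEBPD, CEBPB and CALR. DDIT4, which restrains mTORC1, rose by 0.26 (adjusted p = 0.0163 in limma), and CEBPD rose by 0.20 (adjusted p = 0.0253). CEBPB, a partner of ATF4, fell by 0.26 (adjusted p = 0.0246). CALR, a chaperone of the endoplasmic reticulum, rose by 0.17 (adjusted p = 0.0396). In a test per probe set, no probe set of CEBPD, CEBPB or CALR was called, while that of DDIT4 was.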
